A study of Mus musculus with 16 samples.

Results

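The 7 genes described here, Cd74, H2-Aa, H2-Ab1, H2-Eb1, H2-DMa, H2-DMb1 and Ciita, encode the main parts of the MHC class II antigen presentation machinery of the mouse. They were chosen by name, each being the one row of the counts table whose Ensembl mouse identifier maps to that symbol, so that 7 of 52636 genes in the table were taken. All 7 passed the filter on low counts, which kept 18587 genes, and all 7 were followed through the 16 libraries of the series. RNA was sequenced from isolated pancreatic islets of male C57BL/6 mice aged 12 weeks, named C57BL/6JRj in the sample labels and C57BL/6NRj in the study's methods, with no genetic change in any group. The islets were cultured for 10 days in medium with human serum and were left unexposed (control), or were exposed to butyrate at 0.2 mM, to the cytokine IL-1β at 50 pg/mL, or to both. Each condition had 4 libraries, replicates 1 to 4, each an independent experiment. A library was made from 500 islets of more than one mouse, and no value here belongs to a single animal. Islets are clusters of endocrine cells, mainly insulin-secreting beta cells, that also hold resident macrophages, endothelial cells and other cells, and all of them contribute to these libraries.

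MHC class II molecules are pairs of an alpha and a beta chain that carry peptides from proteins degraded in endosomes to the cell surface, where CD4+ T cells recognize them. The invariant chain, Cd74, binds the newly made pair and blocks its groove until the H2-DM heterodimer exchanges the remaining fragment for a peptide. Ciita, the class II transactivator, binds no DNA itself but is recruited to a conserved set of promoter boxes, and it is the factor that switches the whole group on. Macrophages, dendritic cells and B cells are the usual class II expressing cells, and in other cells interferon gamma is the best known inducer. In the C57BL/6 haplotype the I-A molecule, made of H2-Aa and H2-Ab1, reaches the surface, while H2-Ea is defective, so that H2-Eb1 transcripts have no alpha chain partner.

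Total counts per library were 18635943 to 25955943, and the beta cell genes Ins1 and Ins2 took 11.1% to 21.9% of all counts, so the libraries carried the defining markers of islets. Libraries of one condition differed from each other by more than counting error. IL-1β replicate 4 was the highest library of its condition for Cd74, for the 3 chain genes and for the summed macrophage markers, so results that rest on it are also given without it.

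H2-DMa, H2-DMb1, H2-Ab1, H2-Aa and H2-Eb1 lie close together on chromosome 17, while Ciita and Cd74 are elsewhere in the genome. On the GRCm38 build H2-DMa spans chr17:34119541-34139101, H2-DMb1 chr17:34153072-34160230, H2-Ab1 chr17:34257689-34269419, H2-Aa chr17:34282744-34287823 on the minus strand, H2-Eb1 chr17:34305867-34316674 and Ciita chr16:10480059-10528418, the others being on the plus strand. The box sequences that the class II promoters share were looked for in the RefSeq promoter windows of GRCm38.p6, from 250 bases before to 50 bases after the start. Windows were found for 4 of the members (H2-Aa, H2-Eb1, H2-DMa, H2-DMb1) and for 8 of 12 class II genes listed, members included. The Y box core GATTGG, the site of the factor NF-Y, and the letters AACNNATG, which occur in X boxes, were searched on both strands. The letters were chosen after the windows had been seen. The stretches before the starts of H2-Aa and H2-Eb1 are shown because these chain genes are among the members with the largest rises below. Each runs 5′ to 3′ along the gene's own strand up to the base before the start, with the motif matches on either strand in capitals.
H2-Aa, chr17:34287824-34287953, minus strand: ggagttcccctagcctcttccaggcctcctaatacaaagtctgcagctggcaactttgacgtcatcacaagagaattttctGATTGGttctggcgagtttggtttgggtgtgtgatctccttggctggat
H2-Eb1, chr17:34305737-34305866, plus strand: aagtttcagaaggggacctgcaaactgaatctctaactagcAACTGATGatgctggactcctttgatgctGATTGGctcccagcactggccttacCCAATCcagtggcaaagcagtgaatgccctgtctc

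GATTGG began at position -49 in H2-Aa, -60 in H2-Eb1 and -62 in H2-DMb1, counted from the start as 0. H2-Eb1 also held a GATTGG on the opposite strand, read as CCAATC in the printed stretch from -35. In H2-Eb1 the letters AACNNATG began at -89 and were separated from GATTGG by 21 bases, and in H2-DMb1 they began at -92 with a gap of 22 bases. H2-DMa has 2 annotated starts, and of their windows the second alone held GATTGG, at -199. The same pair of motifs in this order, with a gap of 10 to 45 bases, was present in 5 class II genes in all, the other 3 being H2-DMb2, H2-Ob and H2-Eb2. Over all 32851 windows, 16.1% held GATTGG on either strand, 8.86% held AACNNATG and 0.107%, 35 windows, held both in this order and spacing. The 2 motifs did not overlap in any printed stretch. A match describes letters in the window and is not a measured binding site.

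IL-1β raised 6 of the 7 genes, and Cd74, H2-Aa, H2-Ab1 and H2-Eb1 rose 17.2-fold or more. Across all genes tested, 17.8% changed and 11.2% were raised at an adjusted p under 0.01 (edgeR's quasi-likelihood test with Benjamini-Hochberg adjustment), and 0.538% were raised by at least 8-fold. In 14.1% of all genes every IL-1β library lay above every control library, as it did for these 6 genes. The comparison asks what long exposure to a low dose of the cytokine does to islet gene expression. Levels in CPM, which are counts scaled to the TMM-adjusted size of the library, are given for replicates 1, 2, 3 and 4 in this order.

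Cd74, the invariant chain, had 1.49, 1.25, 2.25 and 2.40 CPM in control islets and 41.9, 27.7, 30.2 and 63.7 CPM with IL-1β. Every IL-1β library lay above every control library, with replicate 4 the highest and replicate 2 the lowest of the exposed ones. The log2 fold change was 4.48 (SE 0.41, adjusted p = 2.4e-06 with edgeR), a rise of 22.4-fold, and it was 4.18 without IL-1β replicate 4. By the size of the rise Cd74 ranked 47th among the genes tested.

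H2-Aa, the I-A alpha chain, had 4, 7, 15 and 12 counts in control islets, or 0.187, 0.292, 0.717 and 0.514 CPM. With IL-1β it had 12.9, 7.16, 8.03 and 16.9 CPM, from 147 to 468 counts. The groups did not overlap, and the log2 fold change of 4.73 (SE 0.49, adjusted p = 7.7e-06 with edgeR), or 26.5-fold, was the largest among the members. H2-Ab1, the I-A beta chain, went from 0.187, 0.584, 0.334 and 0.599 CPM to 13.1, 7.30, 6.63 and 16.02 CPM. This was a log2 fold change of 4.63 (SE 0.49, adjusted p = 8.4e-06 with edgeR), again without overlap. Since the control libraries held only 4 to 15 counts of either chain, the intervals of these folds are wide, from 3.77 to 5.69 for H2-Aa and from 3.68 to 5.59 for H2-Ab1 on the log2 scale.

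H2-Eb1, the I-E beta chain, had 0.700, 0.375, 0.621 and 0.899 CPM in control islets and 12.0, 7.79, 7.72 and 16.8 CPM with IL-1β. Its log2 fold change of 4.11 (SE 0.43, adjusted p = 7.1e-06 with edgeR), 17.2-fold, was of the same order as those of the I-A chains, and its groups did not overlap. H2-Ea, which would encode its partner, had 1 to 2 counts in control libraries and 0 to 2 with IL-1β and was not tested. Without IL-1β replicate 4 the log2 fold changes were 4.45 for H2-Aa, 4.37 for H2-Ab1 and 3.82 for H2-Eb1.

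The peptide exchange factor moved less. H2-DMa, its alpha chain, had 2.99, 2.88, 2.77 and 2.74 CPM in control islets and 6.46, 7.84, 5.70 and 7.47 CPM with IL-1β, a log2 fold change of 1.28 (SE 0.11, adjusted p = 5.6e-10 with edgeR) or 2.42-fold. Its replicates lay close together, and the groups did not overlap. H2-DMb1, its beta chain, had 1, 6, 4 and 12 counts in control islets and 19, 29, 25 and 49 counts with IL-1β. The corresponding CPM were 0.0467, 0.250, 0.191 and 0.514 against 0.982, 1.41, 1.30 and 1.77, and the log2 fold change was 2.41 (SE 0.39, adjusted p = 2.3e-05 with edgeR). The groups were separate, but the size depended on control replicate 4, without which the log2 fold change was 3.02. Reads of H2-DMa and H2-DMb1 can be shared with other genes. H2-DMa shares 360 exon bases, 10.4% of its exon length, with Brd2 on the opposite strand, which had 303.9 CPM in control islets and a log2 fold change of -0.08. Of the 50-base words of H2-DMb1, 22.65% also occur in H2-DMb2, and the strand setting of the counting is not given in the sources used here.

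Ciita, the transactivator, did not pass the test. It had 1.26, 1.21, 1.53 and 1.33 CPM in control islets and 1.499, 1.31, 1.399 and 2.20 CPM with IL-1β, so that 3 of the 4 exposed libraries lay within the control range and replicate 4 stood above it. The log2 fold change was 0.30 (SE 0.20, 95% interval -0.10 to 0.70, adjusted p = 0.32 with edgeR), and 0.09 without IL-1β replicate 4. Ciita shares 329 exon bases, 3.45% of its exon length, with Dexi on the opposite strand. It was read at 27 to 32 counts in control libraries and 27 to 61 counts with IL-1β.

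**Figure D1:**
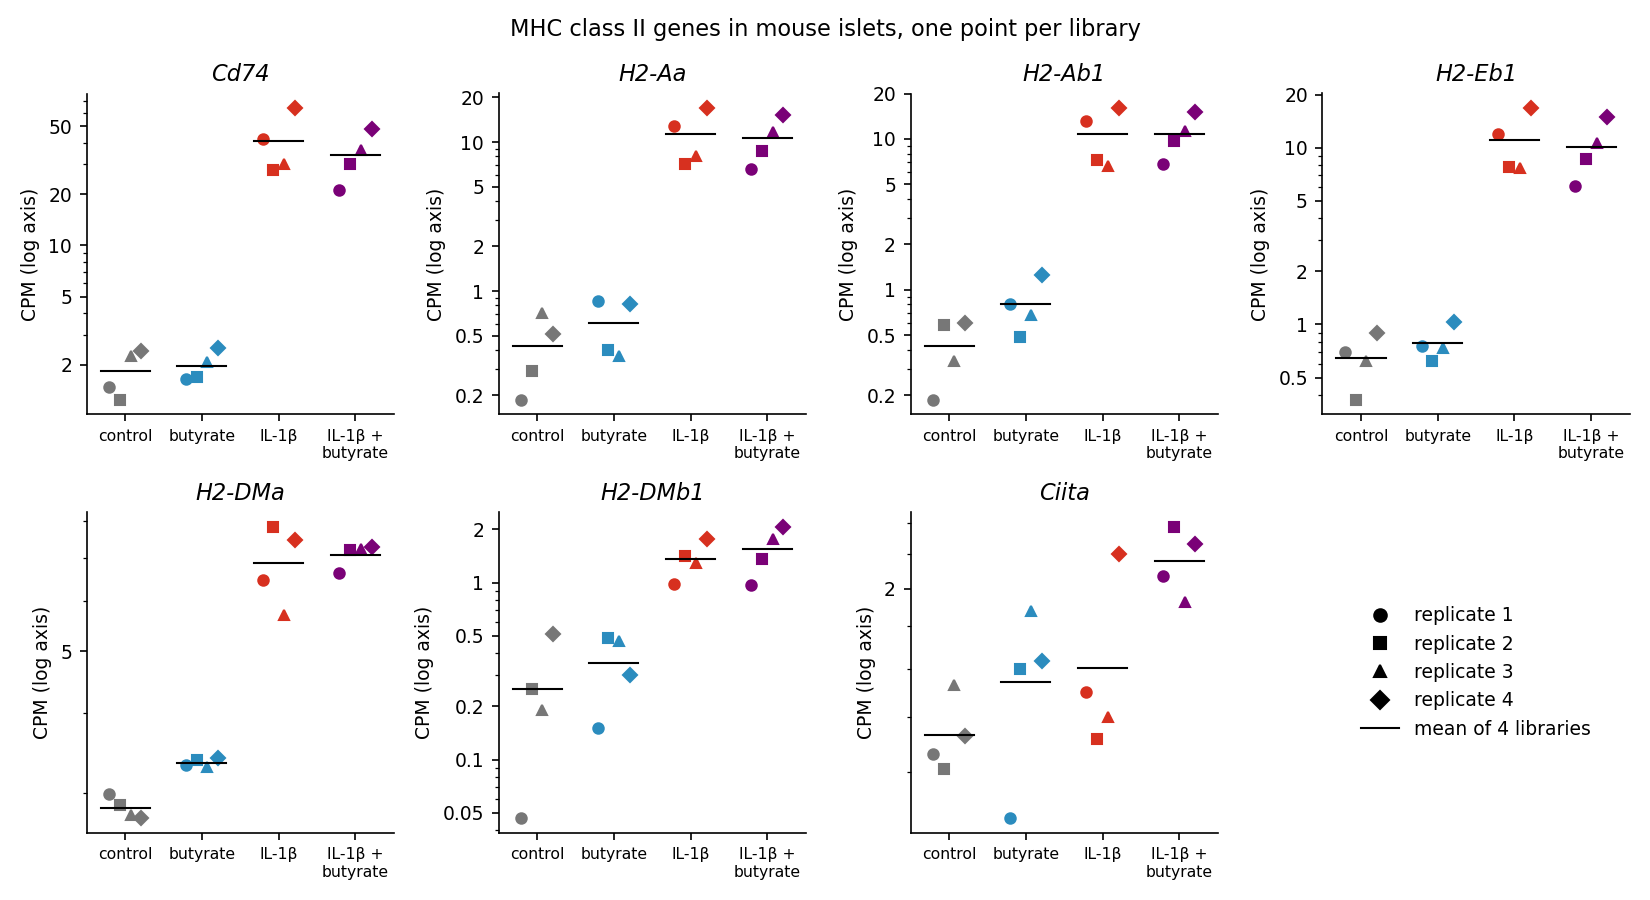
CPM of each of the 7 class II genes on a log axis, one point per library and one symbol per replicate number, with the mean of the 4 libraries of each condition as a bar. Cd74 goes from 1.25 to 2.40 CPM in control islets to 27.7 to 63.7 CPM with IL-1β and 21.0 to 48.1 CPM with IL-1β plus butyrate, while the 4 conditions of Ciita lie between 1.05 and 2.38 CPM.

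IL-1β also raised class II genes when butyrate was present in both groups. Of the 7 genes, 6 were raised by IL-1β plus butyrate against butyrate alone, where 9.92% of all genes were raised. The log2 fold changes were 4.08 (SE 0.41) for Cd74, 4.08 (SE 0.47) for H2-Aa, 3.70 (SE 0.44) for H2-Ab1, 3.65 (SE 0.42) for H2-Eb1, 2.09 (SE 0.36) for H2-DMb1 and 1.08 (SE 0.11) for H2-DMa. Adjusted p-values with edgeR were from 1.0e-08 (H2-DMa) to 7.2e-05 (H2-DMb1), and none of these 6 genes overlapped between the groups, where 14.2% of all genes had every library with both agents above every one with butyrate alone. The fitted rises of these 6 genes were smaller than without butyrate, by log2 differences from -0.93 (H2-Ab1, SE 0.84, 95% interval -2.57 to 0.71) to -0.20 (H2-DMa, SE 0.16, 95% interval -0.50 to 0.11), and none of these differences was called. Ciita had 1.05, 1.60, 1.88 and 1.63 CPM with butyrate and 2.07, 2.38, 1.93 and 2.26 CPM with both agents. These values did not overlap, although the lowest exposed library was only just above the highest one without IL-1β, and the log2 fold change of 0.48 (SE 0.19) had an adjusted p of 0.078 with edgeR.

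Butyrate gave no call for any of the 7 genes in islets exposed to IL-1β, in the comparison of both agents with IL-1β alone. Whether it altered the response to the cytokine is the difference of the butyrate effects, given further below. With edgeR 0 of 7 were called, against 19.5% of all genes in either direction, and DESeq2 also called 0. At an unadjusted p under 0.05 there was 1 member with edgeR, Ciita, and 0 with DESeq2. Cd74 had 21.0, 30.1, 36.3 and 48.1 CPM with both agents, replicate 4 again being the highest, and overlapped broadly with IL-1β alone. Its log2 fold change was -0.29, with a 95% interval from -0.83 to 0.24. It was 0.01 without IL-1β replicate 4, a fit that kept the high replicate 4 with both agents. Over the fits that left out each library in turn it ran from -0.52 to 0.01. With the replicate number as a block it was -0.26 (SE 0.16).

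The chain genes gave the same picture. H2-Aa had 6.58, 8.74, 11.6 and 15.3 CPM with both agents and a log2 fold change of -0.12 (95% interval -0.70 to 0.46). H2-Ab1 had 6.78, 9.68, 11.3 and 15.1 CPM and a log2 fold change of -0.03 (95% interval -0.61 to 0.54), and H2-Eb1 had 6.05, 8.66, 10.6 and 14.9 CPM and -0.17 (95% interval -0.71 to 0.38). Without IL-1β replicate 4 these log2 fold changes turned positive, at 0.15 for H2-Aa, 0.23 for H2-Ab1 and 0.11 for H2-Eb1, and none was called. For each of these 3 genes the 4 libraries with both agents overlapped the 4 with IL-1β alone. The intervals do not show that the levels were equal.

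The peptide exchange genes were also within the spread. H2-DMa had 6.62, 7.21, 7.23 and 7.27 CPM with both agents, with a log2 fold change of 0.04 (95% interval -0.15 to 0.23), the narrowest interval among the members. H2-DMb1 had 0.975, 1.36, 1.75 and 2.07 CPM, with 0.14 (95% interval -0.42 to 0.70). Ciita had the largest value, 0.40 (SE 0.19, 95% interval 0.03 to 0.77, adjusted p = 0.12 with edgeR), and its interval alone among the members left out 0. The Ciita value was 0.60 without IL-1β replicate 4 (adjusted p = 0.024 with edgeR), since that replicate was the highest Ciita library with IL-1β alone.

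In islets without IL-1β, butyrate was also without a call, with 0 of 7 genes against 19.9% of all genes, and at an unadjusted p under 0.05 there were 0 with edgeR and 0 with DESeq2. H2-DMa had 3.31, 3.38, 3.29 and 3.40 CPM with butyrate, against 2.74 to 2.99 CPM in control islets. Its log2 fold change of 0.24 (SE 0.12) had an adjusted p of 0.16 with edgeR. For the chain genes and Cd74 the groups overlapped. H2-Ab1 had 0.804, 0.489, 0.679 and 1.25 CPM and a log2 fold change of 0.90 with a 95% interval from -0.64 to 2.43, so that at 4 to 29 counts a library a change of several fold was not detectable in this comparison. The butyrate effect with IL-1β minus that without it was called for 0 of 7 members, against 0.0968% of all genes, with 0 at an unadjusted p under 0.05 and 0 called with DESeq2.

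Against control, the islets exposed to both agents had all 7 genes raised, where 15.8% of all genes were raised. This comparison shares its libraries with the ones above and is not independent of them. Cd74 and the chain genes had log2 fold changes from 3.94 (H2-Eb1) to 4.61 (H2-Aa), H2-DMb1 had 2.55 (SE 0.38), or 3.16 without control replicate 4, and H2-DMa 1.31 (SE 0.11). Ciita was called only in this comparison among those made. It had a log2 fold change of 0.70 (SE 0.20, adjusted p = 0.0051 with edgeR) or 1.62-fold, from 1.21 to 1.53 CPM in control islets to 1.93 to 2.38 CPM with both agents. This call was lost without control replicate 1, 2 or 4 and without IL-1β plus butyrate replicate 2 or 4, with adjusted p-values over the alternatives from 0.0017 to 0.020. Whether the change in Ciita differed between this comparison and IL-1β against control is the comparison of both agents with IL-1β alone, which was not called.

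**Figure D2:**
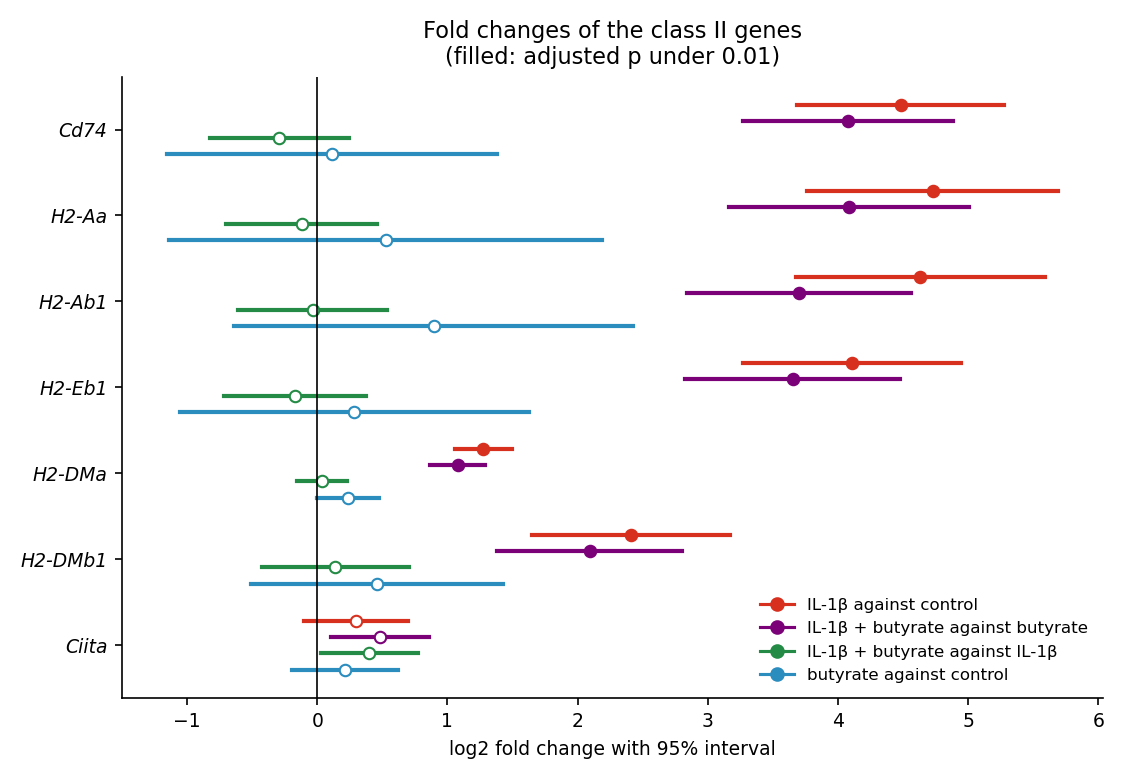
Log2 fold changes of the 7 class II genes in 4 comparisons on the x axis, with the 95% interval (1.96 SE to either side) as a line and filled points for an adjusted p under 0.01. Both comparisons that add IL-1β lie to the right of 0 for Cd74, H2-Aa, H2-Ab1, H2-Eb1, H2-DMa and H2-DMb1, and the intervals of both comparisons that add butyrate include 0 for these 6 genes. For Ciita, with open points throughout, the intervals of both agents against IL-1β (0.03 to 0.77) and against butyrate (0.10 to 0.86) lie above 0.

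Levels can be set between genes only per length of the gene. As TPM, counts scaled by exon length and by the library's total over all genes, Cd74 was the highest member in control islets, at 2.73 ± 0.89 (SD, n = 4), followed by H2-DMa at 2.03 ± 0.07. These 2 overlapped between libraries, and with the length of the longest transcript in place of all exons their order turned, at 2.54 for Cd74 and 2.73 for H2-DMa. Then came H2-Eb1 at 0.828 ± 0.294, with every library below those of H2-DMa, and after it H2-Ab1 at 0.409 ± 0.191, H2-DMb1 at 0.370 ± 0.295, Ciita at 0.345 ± 0.043 and H2-Aa at 0.279 ± 0.159, which overlapped with each other. The H2-Eb1 libraries, from 0.458 to 1.17, also overlapped with those of H2-Ab1.

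With IL-1β the order changed. Cd74 stood at 67.6 ± 31.2 TPM (SD, n = 4), from 42.0 to 112, above every library of every other member. H2-Eb1 at 15.8 ± 7.0, H2-Ab1 at 11.6 ± 5.4 and H2-Aa at 8.21 ± 3.72 overlapped with their neighbours, and H2-DMa at 5.45 ± 0.80 overlapped with H2-Aa. H2-DMb1 at 2.24 ± 0.64 and Ciita at 0.465 ± 0.147 had the lowest levels and overlapped with no other member. With both agents the order was the same, from Cd74 at 56.0 ± 20.2 down to Ciita at 0.625 ± 0.056. H2-DMa, next to Cd74 in control islets, thus had a mean below those of the 3 chain genes in IL-1β exposed islets. With the length of the longest transcript H2-Ab1 stood above H2-Eb1 with IL-1β (19.4 and 14.5 TPM), and H2-DMa stood above H2-Aa with both agents (7.66 and 7.14 TPM), so the order of these neighbours rests on the length used.

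The chain genes stood in a narrow ratio to each other with IL-1β. Per exon length, H2-Aa was 0.663 to 0.819 times H2-Ab1 in single IL-1β libraries and 0.611 to 0.697 times with both agents, while in control libraries, with few counts, this ratio ran from 0.338 to 1.45. H2-Eb1 was 1.21 to 1.54 times H2-Ab1 with IL-1β and 1.18 to 1.30 times with both agents. Cd74 was 4.90 to 6.95 times H2-Ab1 with IL-1β and 4.74 to 4.92 times with both agents. H2-DMa was 2.06 to 3.21 times H2-DMb1 with IL-1β and 2.60 to 31.2 times in control islets, the highest value resting on a single H2-DMb1 count. These ratios depend on the length used. With the longest transcript and IL-1β, H2-Aa was 0.369 to 0.455 times, H2-Eb1 0.666 to 0.845 times and Cd74 2.76 to 3.91 times H2-Ab1, and H2-DMa was 2.96 to 4.61 times H2-DMb1.

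**Figure D3:**
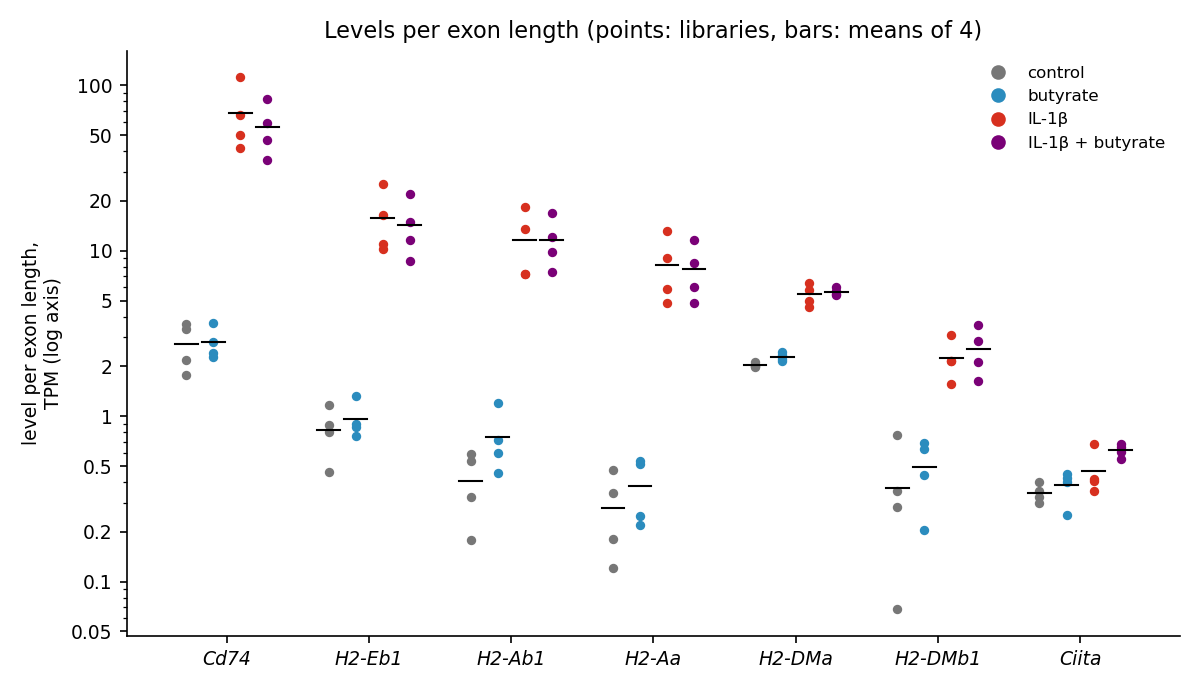
Level of each member per exon length, in TPM on a log axis, with a point for each library and a bar for the mean of the 4 libraries of a condition. Cd74 is the highest member with IL-1β (mean 67.6), and H2-DMa, next to Cd74 in control islets (2.03), has a mean below those of the 3 chain genes with IL-1β (5.45).

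Of 5 other class II genes listed, 1 had enough counts to be tested, and it was not called. H2-DMb2, a second DM beta chain gene, had 9 to 21 counts in control libraries and 4 to 23 with IL-1β, where the log2 fold change was -0.64 (SE 0.36, adjusted p = 0.21 with edgeR). H2-Oa and H2-Ob, which form the DM inhibitor H2-O, and H2-Eb2 did not pass the filter. H2-Ob had 0 counts in each control library, 0 to 1 with butyrate, 0 to 6 with IL-1β and 1 to 4 with both agents, and H2-Oa and H2-Eb2 had at most 1 count in any library. In the whole region from the outermost chromosome 17 members to 50000 bases on either side, 7 genes that are not members were tested. IL-1β raised 3 of them and lowered 0, where 11.2% of all genes were raised. Psmb8, an immunoproteasome subunit encoded between the class II genes, was the only one raised at least 2-fold, which 3.51% of all genes were, from 7.18 ± 0.75 to 18.5 ± 1.9 CPM (SD, n = 4), on the log2 scale a rise of 1.37 (SE 0.09, adjusted p = 1.8e-12 with edgeR). The other two raised genes, named after their values were seen, were Psmb9 (log2 fold change 0.96, SE 0.09), another immunoproteasome subunit, and Tap2 (0.64, SE 0.06), part of the class I peptide transporter.

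The genes of the factors that occupy the class II promoters were raised by IL-1β at about the share of all genes. Of the 7 genes of the list (Rfx5, Rfxank, Rfxap, Nfya, Nfyb, Nfyc and Creb1), 1 was raised and 0 lowered, where 11.2% of all genes were raised. The median log2 fold change was -0.05, and the median of all genes was -0.03. Rfx5, the DNA-binding subunit of the X box complex, was the one raised, by 0.28 (SE 0.05, adjusted p = 1.3e-04 with edgeR). With butyrate on top of IL-1β, Rfx5 fell by 0.27 and the NF-Y subunit gene Nfyc fell by 0.31 on the log2 scale, 2 of 7 lowered against 11.1% of all genes, beside a median of 0.05 for the list and 0.01 for all genes. These 2 genes were also lowered by butyrate alone, Rfx5 by a log2 fold change of -0.31 and Nfyc by one of -0.29.

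Genes of the route from interferon gamma to Ciita were raised in 5 of 8 tested, against 11.2% of all genes, with a median of 0.60. Among them were the receptor chain genes Ifngr2 (log2 fold change 1.49, SE 0.07) and Ifngr1 (0.65, SE 0.07), and the transcription factors Irf8 (1.00, SE 0.20) and Irf1 (0.74, SE 0.05). Jak1, Jak2 and the feedback inhibitor Socs1 were not called, with 0.09 for Socs1. Ifng, the gene of the cytokine itself, had 3 to 7 counts in control libraries and 1 to 11 with IL-1β and was not tested. With butyrate on top, 1 of 8 was lowered, where 11.1% of all genes were lowered, and the median was -0.17. This was the kinase gene Jak2, which fell by 0.25 on the log2 scale. Jak2 was also lower with butyrate alone, at 32.2 to 35.8 CPM against 40.7 to 44.9 CPM in control islets.

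The endosomal proteases and their helpers were raised in 6 of 7, against 11.2% of all genes, with a median of 0.71. Ctss, cathepsin S, which trims the invariant chain in antigen-presenting cells, rose most, by a log2 fold change of 2.65 (SE 0.29, adjusted p = 1.4e-05 with edgeR). Lgmn (1.14), Ctsb (0.79), Ctsl (0.71), Ifi30 (0.51), a thiol reductase of the class II compartment, and Sppl2a (0.31), which cleaves the last fragment of Cd74, also rose, and Ctsd, at 0.06, was not called. Only Ctss of this list was lowered when butyrate was added to IL-1β, 1 of 7 where 11.1% of all genes were lowered. It fell by 1.15 on the log2 scale (SE 0.25, adjusted p = 0.0041 with edgeR).

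Of the costimulation and turnover genes, 3 of 5 tested were raised by IL-1β, against 11.2% of all genes, with a median of 1.07. They were Cd40 (log2 fold change 2.29, SE 0.24) and Cd86 (1.12, SE 0.27), which engage T cells, and Marchf1 (1.07, SE 0.22), a ubiquitin ligase that removes class II from the surface. With butyrate on top of IL-1β none of the 5 was called with edgeR, and Cd86, at -0.83, had an adjusted p of 0.016. The surface partners of Cd74 as a receptor for the cytokine MIF were raised in 2 of 3 tested, against 11.2% of all genes. These were Cxcr4 by 1.19 (SE 0.23) and Cd44 by 0.84 (SE 0.16), while Mif was at 0.09. Cxcr4 was the only one of these 3 lowered with butyrate on top of IL-1β, where 11.1% of all genes were lowered. Its log2 fold change was -1.20 (SE 0.23, adjusted p = 2.1e-04 with edgeR).

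Marker genes of macrophages moved with IL-1β beside the class II genes. Of 12 markers, 11 were raised and 1 lowered, with a median log2 fold change of 2.22. All 5 pan-leukocyte genes were raised with a median of 2.45, where 11.2% of all genes were raised. Examples were Adgre1, which encodes F4/80, at 2.45 (SE 0.31), Cd68 at 1.34 (SE 0.20) and Csf1r, the receptor of the macrophage growth factor, at 2.189 (SE 0.30). C1qa went the other way, with a log2 fold change of -0.49 (adjusted p = 0.0076 with edgeR), a call lost in 11 of 23 alternatives. Since C1qa alone made up most of the summed level in control islets, the sum of the other 11 markers is given, which was 21.1 to 33.2 CPM in control islets, 15.6 to 26.2 with butyrate, 103 to 177.4 with IL-1β and 45.5 to 100 with both agents. No macrophage marker was at 0 or at most 3 counts throughout a condition. In whole islets, more or fewer cells of a type and more or less RNA per cell cannot be told apart, and the part of the macrophage genes in the class II result was not tested.

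Markers of other class II expressing cell types were read at low counts. The dendritic cell markers summed to 4.01 to 5.95 CPM in control islets and 9.46 to 15.5 CPM with IL-1β. Of these, 3 of 8 were tested and 1 was raised, where 11.2% of all genes were raised. It was Itgax, which macrophages also express, raised by 2.73 (SE 0.30). Flt3 had 31 to 41 counts in control libraries and 10 to 43 with IL-1β (log2 fold change -0.43, SE 0.23), and Zbtb46 had 28 to 45 counts in both conditions (0.18, SE 0.21), and neither was called. Of the other markers, Cd209a and Batf3 had 0 counts in control libraries, and with IL-1β Batf3, Clec9a and Cd209a had at most 3 counts in each library, while Batf3 had 5 to 8 counts with both agents. The B cell markers summed to 1.77 to 2.87 CPM in control islets and 1.14 to 2.95 CPM with IL-1β, with Blk at no more than 3 counts in each library and 0 of 2 tested genes called. The T cell markers summed to 3.08 to 4.79 and 2.69 to 4.38 CPM, with 0 of 3 called, and to 5.74 to 6.54 CPM with both agents. Against IL-1β alone 1 of 3 was then raised, Lck at 1.23 (SE 0.16), where 19.5% of all genes changed in either direction. Butyrate against control also raised 1 of 3, where 19.9% of all genes changed in either direction. The beta cell markers summed to 213491 to 236289 CPM in control islets and 136869 to 178429 CPM with IL-1β. The summed duct markers were higher beside the class II genes, from 371 to 398 CPM in control islets to 540 to 631 with IL-1β and 550 to 844 with both agents. Of the duct markers, 2 of 5 tested were raised by IL-1β, against 11.2% of all genes. They were Spp1 at 3.74 (SE 0.38), which macrophages also express, and Krt7 at 0.23 (SE 0.05). The part of duct cells in the class II result was not tested.

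With butyrate on top of IL-1β, the class II genes and the macrophage markers differed in their counts of calls. Where 0 of 7 class II genes and 11.1% of all genes were lowered, 6 of 12 macrophage markers were, with a median of -0.84 for the list against -0.03 for the class II genes. The 6 were Adgre1 at -1.27, Mertk at -0.99, C1qc at -0.98, C1qb at -0.96, Cd68 at -0.72 and C1qa at -0.63. The number lowered was 3 without IL-1β replicate 4, 2 in a fit of these 2 groups alone and 9 with the replicate number as a block, and it was between 2 and 9 over all alternatives. Adgre1, the most lowered of the 6, had 6.82, 8.57, 10.3 and 13.3 CPM with IL-1β and 2.11, 3.99, 4.55 and 5.87 CPM with both agents, without overlap. Cd74 overlapped in the same libraries, and so did Csf1r, a marker not among the 6. Csf1r had 4.99 to 9.98 TPM with IL-1β and 3.10 to 7.67 TPM with both agents. Of the pan-leukocyte genes, 1 of 5 was lowered. Without IL-1β, butyrate lowered 1 of 12 macrophage markers and raised 0, with a list median of -0.52, where 19.9% of all genes changed in either direction. The butyrate effect with IL-1β minus that without it was called for 0 of 12, against 0.0968% of all genes, with a median of -0.28. The difference between the 2 sets of genes was not tested.

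**Figure D4:**
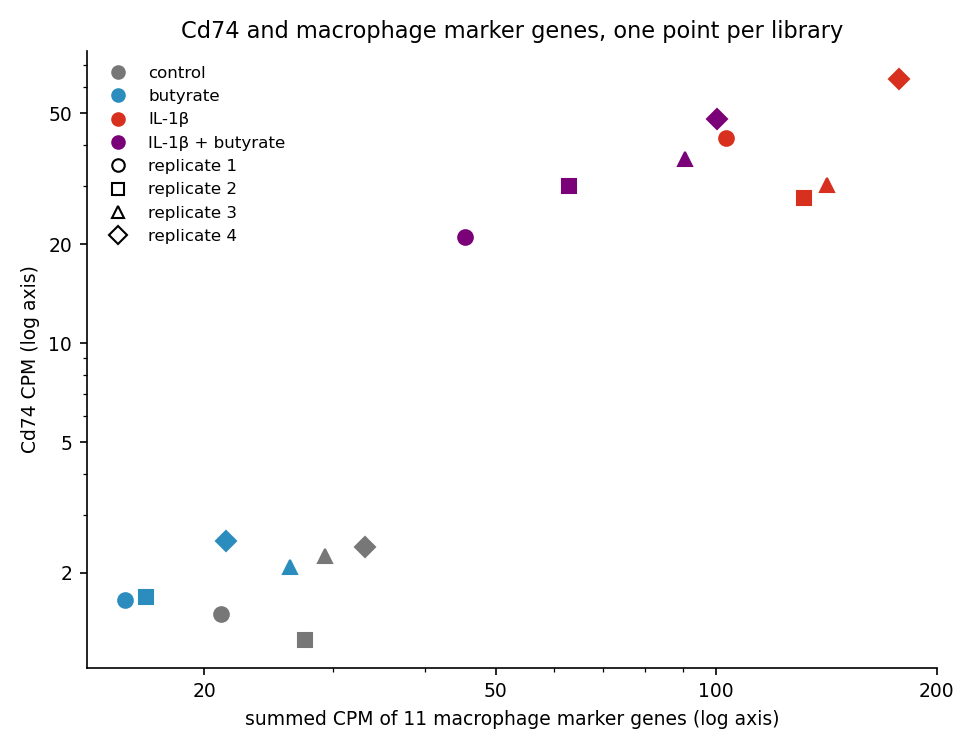
CPM of Cd74 (y axis) against the summed CPM of 11 macrophage markers without C1qa (x axis), both on log axes, one point per library, with colours for conditions and symbols for replicate numbers. Libraries with both agents lie at 45.5 to 100 CPM of the markers and 21.0 to 48.1 CPM of Cd74, to the left of those with IL-1β alone (103 to 177.4) at overlapping Cd74 levels.

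Expressed as a ratio within each library, Cd74 per summed CPM of all 12 macrophage markers was 0.0134 ± 0.0046 in control islets, 0.0206 ± 0.0056 with butyrate, 0.186 ± 0.063 with IL-1β and 0.264 ± 0.053 with both agents (SD, n = 4). The single libraries gave 0.0103, 0.00870, 0.0167 and 0.0181 in control islets and 0.216, 0.125, 0.142 and 0.260 with IL-1β. All IL-1β libraries were above all control libraries, as were those with both agents, at 0.203, 0.268, 0.255 and 0.331, which overlapped with IL-1β alone. Without C1qa in the sum the ratio was 0.0663 ± 0.0141, 0.101 ± 0.015, 0.297 ± 0.101 and 0.455 ± 0.037 in the same order of conditions. The step from control to IL-1β was then smaller as a fold and larger as a difference. No test was made of these ratios.

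**Figure D5:**
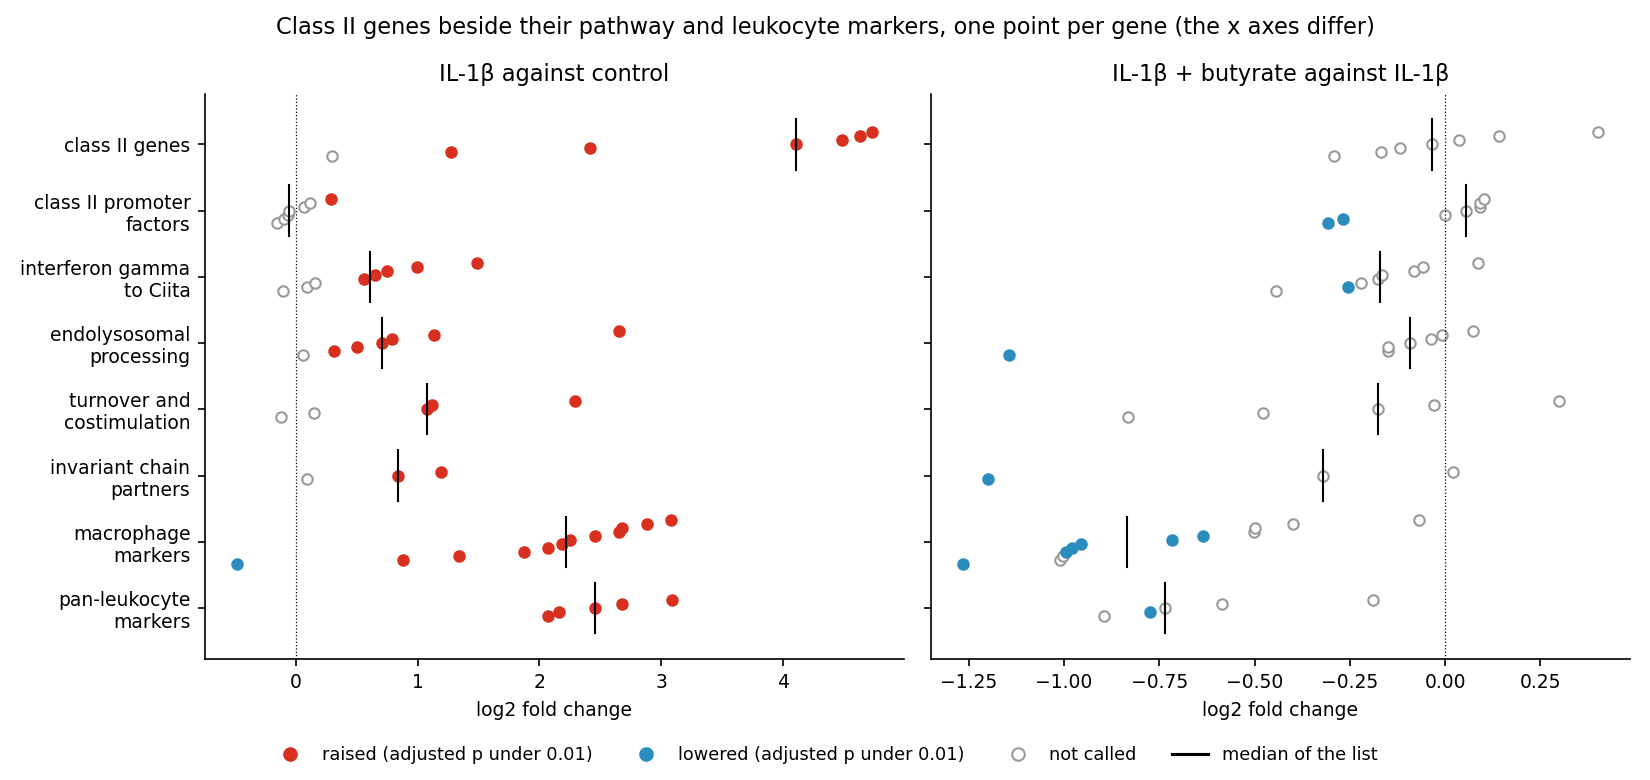
Log2 fold change of each tested gene (points) in the class II group, its pathway lists and the leukocyte marker lists, for IL-1β against control on the left and IL-1β plus butyrate against IL-1β on the right, with list medians as bars. The class II median is 4.11 on the left and -0.03 on the right, and the macrophage median is 2.22 and -0.84.

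Across the 16 libraries, the genes whose log2 CPM was most like the mean profile of Cd74, H2-Aa, H2-Ab1 and H2-Eb1, among 12688 genes with an average log2 CPM of at least 1, were Fchsd2 (Pearson r = 0.987), Fgl2, Gbp4, Lgals3bp, Tnfrsf11b, Cp, Rasgrp1 and Car8 (r = 0.980). All points share libraries and their depth, and the libraries fall into those with and without IL-1β, so these values mostly describe that step. Gbp4 went from 1.36 to 17.1 CPM on average between control and IL-1β, and Lgals3bp from 579.2 to 1985 CPM. After the mean of each condition was subtracted, so that only differences between replicates of a condition counted, the 8 most alike included 1520401A03Rik (r = 0.865), Cars2, Cbln3, Mvb12b, Asap3, Itgax (r = 0.822) and Rfx6 (r = 0.814).

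Within conditions Cd74, H2-Aa, H2-Ab1 and H2-Eb1 varied together. Their pairwise r after the condition means were subtracted was between 0.64 (H2-Ab1 with H2-Eb1) and 0.93 (Cd74 with H2-Eb1) over 16 libraries. H2-DMa was little like them, at 0.05 with H2-Aa to 0.27 with H2-Eb1, and Ciita reached 0.62 with Cd74 and 0.20 with H2-Aa. To the mean profile of the 4 genes, Csf1r had r = 0.665, Adgre1 0.629 and Ptprc 0.469 on this scale, and Ins2 had -0.647. These are descriptions over libraries that share their depth, and no test was made of them.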

How the data were processed

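RNA from 16 islet libraries was sequenced after preparation with NEBNext Ultra II, and the authors mapped the reads to GRCm38 with STAR 2.5.3a. The deposited values are whole-number counts per gene without normalization, 1 column per library. The strand setting and annotation release of the counting are not given in the sources used here. GENCODE M21 gave symbols, positions and exon overlaps, and 52489 of 52636 identifiers matched it. With edgeR 4.0.16 (R 4.3.3), genes were filtered (filterByExpr), scaled by TMM and fitted in 1 robust quasi-likelihood model of 4 conditions over 16 libraries without a replicate block. Calls had a Benjamini-Hochberg adjusted p under 0.01 over all 18587 genes. An SE is the log2 fold change over the square root of its F, and a 95% interval is 1.96 SE either side. Libraries had 18635943 to 25955943 counts without molecular identifiers.

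The 7 members and all lists were chosen with earlier results of these data known. The members are named throughout, list genes when called, regional genes when called by 2-fold, and the 8 genes nearest in profile. Genes named outside this rule were chosen after their values were seen. Some genes that the rule names are not reported here. Replicates are independent experiments of pooled mice. The pipeline was checked on simulated data. Alternatives were other scalings (DESeq2 1.42.0 size factors, upper quartile, library size), no filter, DESeq2, the compared groups alone, a replicate block and leaving out each library.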

Additional observations from a re-analysis of the deposited data

Results flagged for a closer look

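In islets exposed to both agents, the H2-DMa level of replicate 1 was 6.62 CPM, apart from the other 3 libraries at 7.21 to 7.27 CPM. This lowest library lay farther from its neighbours, relative to the range of the group, than Dixon's 95% limit for 4 samples. Of 28 groups of 4 libraries examined, chance gives such a value in about 1 of 20. The 4 libraries lay within the range with IL-1β alone, 5.70 to 7.84 CPM.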

How the results depend on the processing

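The number of class II genes called was 6 for IL-1β against control, 0 for both agents against IL-1β, 0 for butyrate against control, 6 for both agents against butyrate and 0 for the difference of the butyrate effects under each alternative run, leave-one-out included (6 to 6, 0 to 0, 0 to 0, 6 to 6 and 0 to 0). For both agents against control it was 6 to 7 when single libraries were left out. Of 958 refits of single members, 953 kept their side of the threshold, 5 lost the call of Ciita described above, and none reversed a call.

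The ratio of Cd74 to macrophage markers moved when the markers changed, an alternative added after seeing the data. Without C1qa it was 0.0663, 0.101, 0.297 and 0.455 in control, butyrate, IL-1β and both agents, and against the pan-leukocyte list it was 0.290, 0.395, 1.34 and 1.73. Leaving out single libraries gave 0.0119 to 0.0150, 0.0180 to 0.0223, 0.161 to 0.206 and 0.242 to 0.284. With the length of the longest transcript, levels rose to 0.676, 1.23, 19.4 and 19.3 for H2-Ab1, to 2.73, 3.07, 7.38 and 7.66 for H2-DMa in the same order, and to 0.427, 0.473 and 0.779 for Ciita in control, butyrate and both agents.

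Replicate numbers are shared by the conditions, but the sources do not say that they pair libraries. The column headers number the conditions of a replicate in sequence, and the study used paired t-tests for its islet secretion and qPCR data. Deviations from the condition means correlated at 0.05 to 0.40 between libraries of the same number, with 17 of 24 pairs over 0.1, and 14 of 16 libraries were closest to their own number, a hint from the data and not the design. With the replicate block the members called were 6, 0, 0, 6, 7 and 0 in the 6 comparisons, and 4537 genes in all were called for IL-1β against control, where 3311 were called without it.

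Depth limits the control and butyrate levels of H2-Aa, H2-Ab1, H2-Eb1 and H2-DMb1, at 1 to 29 counts a library.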
